A study of Rattus norvegicus with 144 samples.

Results

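The transcripts described here belong to 32 rat genes of fatty acid oxidation and of the program of PPARA, the nuclear receptor peroxisome proliferator-activated receptor alpha. The genes were listed by name, and every probe set whose platform annotation gave 1 of these symbols alone was read. Of the 32 genes, 31 had a probe set among the 14217 genes of the larger deposited table (41 probe sets), and 30 among the 10411 genes of the smaller one (34 probe sets). No probe set read here carried Acaa1a, a peroxisomal thiolase, and Creb3l3 was read in the larger table only.

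The study held 72 male Sprague Dawley rats, aged 8 to 10 weeks. They were dosed by mouth every day with AMG A or AMG B, or were controls at 0 mg/kg. AMG A and AMG B are code-named compounds whose intended pharmacology is antiangiogenic. Each of 36 groups of tissue, study, dose and day held 4 animals. In the AMG A study, liver was taken on days 1, 4 and 14 at 0, 3 and 30 mg/kg, and adrenal gland and pancreas on day 14 at the same doses. In the AMG B study, liver and adrenal gland were taken on days 1, 4 and 14 at 0, 3 and 60 mg/kg, and pancreas on day 14 at the same doses. Liver of the AMG A study was in the smaller table (36 arrays) and every other array in the larger. The animals of a group are separate rats, and tissues taken on the same day of a study came from the same rats, namely liver and adrenal gland on days 1 and 4 of the AMG B study and all 3 tissues on day 14 of both studies.

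All values are deposited scores: 0 is the mean of a probe set over the arrays and 1 unit its standard deviation. A difference in score gives no fold change and no RNA quantity, and levels of different genes cannot be set against each other. Differences below are treated minus control of the same study, tissue and day, with the standard error (SE) of the limma model fitted to all genes, and "fell" or "rose" is used where the Benjamini-Hochberg adjusted p over all genes was under 0.05. In whole tissue, fewer cells of a type and less RNA per cell cannot be told apart. Marker genes fitted the tissue labels: hepatocyte markers averaged 0.40 to 0.62 in control liver of the AMG B study on day 14, against -0.99 in adrenal gland and -0.95 to -0.92 in pancreas. Adrenal cortex markers averaged 1.32 to 1.46 in control adrenal gland, and acinar markers 2.32 to 3.13 in control pancreas.

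Fatty acids enter mitochondria as carnitine esters and are then shortened in repeated rounds of dehydrogenation, hydration, renewed dehydrogenation and thiolytic cleavage, while electron-transferring flavoproteins pass the electrons to the respiratory chain. In liver, PPARA senses fatty acids, pairs with the retinoid X receptor and drives many of these enzymes, most of all in fasting. The pair binds direct repeats of an AGGTCA-like half-site, and peroxisomes and microsomes handle chains that mitochondria take poorly.

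Promoter windows are shown for 4 members that carry the closest matches to that repeat or lie head to head with another member. The windows run from 250 bases before to 50 bases after 1 start per gene. They come from RefSeq (build GRCr8), where 25 of the 32 listed genes had one, Acaa1a included. For some members, Acadvl and Hadhb among them, that start lies inside the annotated gene, whose minus-strand end is at 55236786 and 31907557. The motif searched was AGGTCA, any 1 base, AGGTCA, on both strands. Capitals mark the best match in each window, in Acadvl with 1 mismatch, in Crat and Slc25a20 with 2 and in Hadha with 3.

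Acadvl (chr10:55236656-55236955, minus strand): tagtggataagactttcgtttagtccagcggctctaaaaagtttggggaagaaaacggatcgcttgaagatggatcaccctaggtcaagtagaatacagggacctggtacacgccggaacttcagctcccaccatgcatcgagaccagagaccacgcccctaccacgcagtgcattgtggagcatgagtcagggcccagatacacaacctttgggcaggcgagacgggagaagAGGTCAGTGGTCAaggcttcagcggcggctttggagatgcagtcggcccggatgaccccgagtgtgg
Crat (chr3:34087050-34087349, minus strand): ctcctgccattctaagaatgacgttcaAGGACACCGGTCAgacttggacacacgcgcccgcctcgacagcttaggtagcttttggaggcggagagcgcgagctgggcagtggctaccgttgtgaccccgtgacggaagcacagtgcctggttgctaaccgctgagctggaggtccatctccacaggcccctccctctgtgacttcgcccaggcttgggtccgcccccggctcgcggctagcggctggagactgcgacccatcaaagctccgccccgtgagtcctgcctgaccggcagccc
Slc25a20 (chr8:118243323-118243622, plus strand): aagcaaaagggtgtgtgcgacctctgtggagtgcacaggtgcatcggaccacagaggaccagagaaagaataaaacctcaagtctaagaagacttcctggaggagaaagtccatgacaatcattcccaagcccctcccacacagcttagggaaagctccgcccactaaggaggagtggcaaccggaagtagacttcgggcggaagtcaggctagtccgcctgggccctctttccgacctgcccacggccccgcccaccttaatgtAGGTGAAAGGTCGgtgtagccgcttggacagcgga
Hadha (chr6:31907551-31907850, plus strand): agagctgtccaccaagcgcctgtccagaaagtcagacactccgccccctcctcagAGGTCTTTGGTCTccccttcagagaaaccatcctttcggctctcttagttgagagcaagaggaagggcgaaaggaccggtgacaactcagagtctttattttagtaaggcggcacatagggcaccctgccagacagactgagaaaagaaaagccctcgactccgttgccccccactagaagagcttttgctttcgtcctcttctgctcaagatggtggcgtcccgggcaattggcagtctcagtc

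None of the 25 windows held an exact repeat, against 0.0341% of the 11733 genes of the larger table with a window. Acaa1a, counted in the 25, is not among the 11733. With up to 1 mismatch, 1 window (4%) matched, that of Acadvl at bases -17 to -5 from the start used, against 0.435% of all genes. With up to 2 mismatches, 5 windows (20%) matched, those of Acadvl, Crat, Creb3l3, Etfa and Slc25a20, against 2.90% of all genes. A match is a run of letters and not a measured binding site. Hadha and Hadhb, which encode both subunits of the mitochondrial trifunctional protein, lie on opposite strands. The starts used for their windows are 301 bases apart, and the windows share 200 bases.

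The clearest change was in liver after 14 days of AMG B at 60 mg/kg. There 9 of 31 members fell and 0 rose, by limma, and 27 of the 31 differences were below 0. Over all genes 7.32% passed the threshold in this comparison, 3.78% as lower. The median difference of the members was -0.54, and the size of a difference had a median of 0.58 in the members and 0.24 in all genes. The 9 were Acaa2, Hadh, Hadha and Acads of the mitochondrial spiral, Cpt2 and Crat of the carnitine shuttle, Eci1 and Ehhadh, which handle unsaturated and peroxisomal substrates, and Angptl4, a secreted inhibitor of lipoprotein lipase that PPARA and fasting raise. In 7 members every treated animal lay below every control and in 0 above, the 6 called members other than Eci1, Ehhadh and Hadha and also Fgf21, against 10.9% of all genes whose groups did not overlap in either direction.

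**Figure D1:**
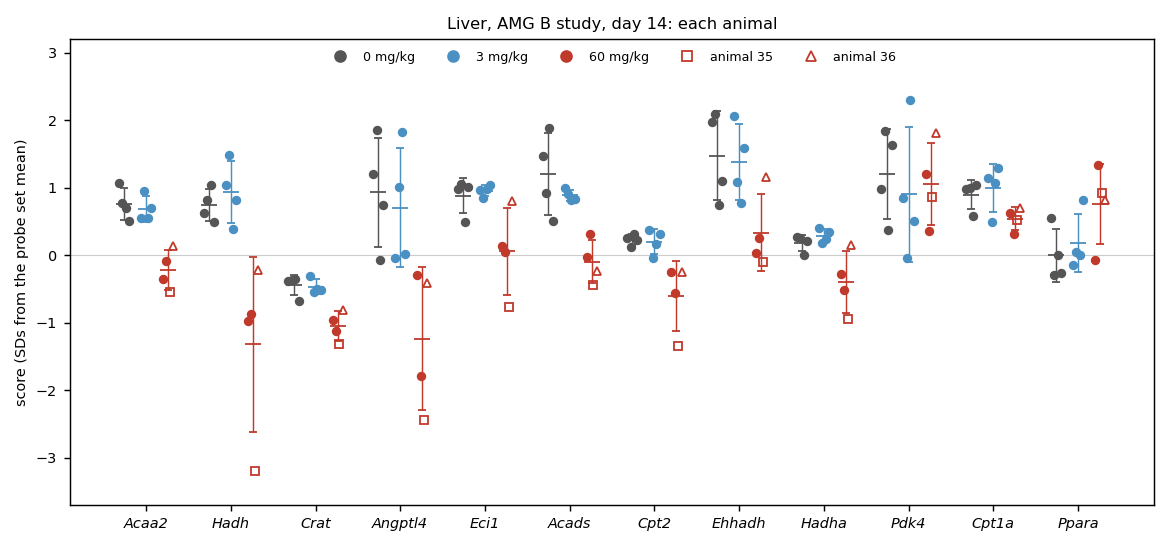
Scores of each animal in liver of the AMG B study on day 14 (vertical axis, in standard deviations of the probe set) for the 9 members that fell at 60 mg/kg and for Pdk4, Cpt1a and Ppara (horizontal axis). Points are animals, bars the mean and SD of 4, grey 0, blue 3 and red 60 mg/kg, with animal 35 as a square and animal 36 as a triangle. For Hadh the 4 animals at 60 mg/kg sit between -3.20 and -0.23, all below the controls, and animal 35 is the lowest.

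Among the later mitochondrial steps, Hadh, the short-chain hydroxyacyl-CoA dehydrogenase, scored 0.63, 0.83, 1.04 and 0.49 in the control livers and -0.97, -0.88, -3.20 and -0.23 at 60 mg/kg. It fell by 2.07 (SE 0.37, adjusted p = 0.00088), with the groups apart and the lowest score in animal 35. Acaa2, the mitochondrial thiolase that ends each round, scored 1.07, 0.78, 0.71 and 0.50 in controls and -0.35, -0.09, -0.55 and 0.13 at 60 mg/kg. It fell by 0.98 (SE 0.16, adjusted p = 0.00039), again without overlap. At 3 mg/kg both genes overlapped the controls, with Hadh at 0.94 ± 0.46 and Acaa2 at 0.68 ± 0.19 (SD, n = 4). Hadha, the alpha subunit of the trifunctional protein, fell by 0.58 (SE 0.16, adjusted p = 0.023), from 0.18 ± 0.12 to -0.40 ± 0.46, and 1 treated animal, at 0.15, lay inside the control range. Its partner Hadhb missed the threshold with a difference of -0.69 (adjusted p = 0.071).

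Of the 4 acyl-CoA dehydrogenases, which open each round for chains of different length, only Acads, the short-chain enzyme, passed. Acads scored 1.47, 0.93, 1.89 and 0.51 in controls and -0.03, 0.32, -0.44 and -0.24 at 60 mg/kg. It fell by 1.30 (SE 0.31, adjusted p = 0.010), with every treated animal below every control. Acadm, the medium-chain enzyme, scored 0.54, 0.64, 0.72 and 0.54 in controls and 0.21, 0.23, -0.45 and 0.79 at 60 mg/kg, groups that overlap (difference -0.41, adjusted p = 0.11). Acadl differed by -0.40 and Acadvl, the very-long-chain enzyme, by 0.27, neither past the threshold.

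In the carnitine shuttle, Cpt2, which reforms acyl-CoA inside the mitochondrion, scored 0.25, 0.12, 0.31 and 0.23 in controls and -0.26, -0.56, -1.35 and -0.25 at 60 mg/kg. It fell by 0.83 (SE 0.20, adjusted p = 0.011) and the groups did not overlap. Crat, carnitine acetyltransferase, scored -0.39, -0.36, -0.35 and -0.67 in controls and -0.96, -1.12, -1.31 and -0.81 at 60 mg/kg. It fell by 0.61 (SE 0.14, adjusted p = 0.0084), and again every treated animal was below every control. Cpt1a, the liver form of the rate-controlling outer-membrane step, scored 0.99, 1.00, 0.58 and 1.03 in controls and 0.62, 0.31, 0.52 and 0.70 at 60 mg/kg. These groups overlap in animals 33 and 36, and the difference of -0.36 did not pass (adjusted p = 0.17). The carrier Slc25a20 differed by -0.68 (adjusted p = 0.067) and the muscle form Cpt1b by 0.026.

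Among enzymes of unsaturated chains and peroxisomes, Eci1, an enoyl-CoA isomerase, scored 0.98, 1.05, 0.50 and 1.01 in controls and 0.14, 0.05, -0.76 and 0.81 at 60 mg/kg. It fell by 0.82 (SE 0.20, adjusted p = 0.0094), and animal 36 lay within the control range. Ehhadh, the peroxisomal bifunctional enzyme and a much-used PPARA target, scored 1.98, 2.10, 0.74 and 1.09 in controls and 0.04, 0.25, -0.10 and 1.16 at 60 mg/kg. It fell by 1.14 (SE 0.30, adjusted p = 0.020), and animal 36 was again inside the control range. Decr1 (-0.89), Eci2 (-0.30), Ech1 (-0.28) and Pex11a, a peroxisome proliferation factor (-0.54), did not pass. Neither did the 3 genes of electron transfer, Etfa (0.23), Etfb (-0.22) and Etfdh (-0.64), nor the thioesterases Acot1 (-0.049) and Acot2 (-0.93), near-identical copies whose signals may be shared.

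Regulators and secreted or classical targets of PPARA did not move as one. Angptl4 scored 1.21, 1.85, -0.07 and 0.75 in controls and -0.29, -1.80, -2.44 and -0.42 at 60 mg/kg. It fell by 2.17 (SE 0.51, adjusted p = 0.0085), with no overlap of the groups. Pdk4, the kinase that shuts pyruvate dehydrogenase when fat is burnt, scored 0.98, 1.84, 0.38 and 1.64 in controls and 1.20, 0.37, 0.87 and 1.81 at 60 mg/kg, groups that overlap fully (difference -0.15, adjusted p = 0.89). Cyp4a1, the microsomal omega-hydroxylase and a classical PPARA target with close relatives in its family, scored 1.22, 1.30, 0.90 and 1.25 in controls and 0.70, 0.73, 0.71 and 1.28 at 60 mg/kg. Of its treated animals 3 lay below all controls and animal 36 lay among them (difference -0.32, adjusted p = 0.22). Vnn1, a pantetheinase, scored -0.30, -0.26, -0.59 and -0.41 in controls and -0.33, -0.63, -0.68 and -0.05 at 60 mg/kg, with overlap (difference -0.029, adjusted p = 0.94). Ppara itself scored 0.55, -0.29, 0.01 and -0.27 in controls and -0.07, 1.34, 0.92 and 0.82 at 60 mg/kg, a difference of 0.76 that did not pass (adjusted p = 0.071). Thus 3 of the 4 treated livers lay above every control for Ppara while its listed target Angptl4 was lower. Fgf21, a fasting hormone of the liver, differed by -1.06 (adjusted p = 0.20) and Creb3l3 by -0.22.

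Against the low dose, 12 members were lower at 60 mg/kg on day 14 in liver and 0 higher, where 2.29% of all genes were lower. They were 8 of the 9 above, without Acads, and Acadm, Hadhb, Slc25a20 and Vnn1. Hadh differed most, by -2.25 (adjusted p = 0.00078), and Acaa2 by -0.90 (adjusted p = 0.0017). Vnn1 differed there by -0.49 (adjusted p = 0.044), and its score was 0.07 ± 0.19 at 3 mg/kg and -0.42 ± 0.29 at 60 mg/kg, the latter close to the controls at -0.39 ± 0.15, and the call was lost in 11 of 16 alternatives, 7 of them leaving out 1 animal (29 to 35). Without animal 35, Angptl4, Cpt2, Crat, Ehhadh, Hadha, Hadhb, Slc25a20 and Acadm lost theirs as well.

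The calls in liver rest on a spread estimated over all 9 groups of the AMG B livers. With only the 2 compared groups in the fit, limma called 0 of 31 members against control and 54 of all genes. In the fit of all groups, 18 members and 3103 of 14217 genes had an unadjusted p under 0.05.

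Animal 35 of the 60 mg/kg group stood apart and is shown in and out of the comparison. The mean score over the 31 members was -0.46 in its liver, against 0.12, 0.083 and 0.63 in animals 33, 34 and 36 and 0.45 to 0.78 in the controls. Macrophage markers averaged 1.13 in the liver of animal 35, within the control range of 0.65 to 1.61, and -0.80, -0.91 and -0.46 in the other 3. Endothelial markers averaged 0.16 in it and -0.38 to -0.19 in the other 3. So the liver of animal 35 had the lowest scores of fatty acid oxidation and marker scores of both cell types closer to the controls than its group.

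Without animal 35, 6 of the 9 members still fell in liver, namely Acaa2 (-0.86, adjusted p = 0.0019), Hadh (-1.44, adjusted p = 0.00092), Acads (-1.18, adjusted p = 0.033), Crat (-0.52, adjusted p = 0.035), Angptl4 (-1.77, adjusted p = 0.040) and Eci1 (-0.55, adjusted p = 0.042). Cpt2 (-0.58, adjusted p = 0.059), Ehhadh (-0.996, adjusted p = 0.067) and Hadha (-0.40, adjusted p = 0.11) did not pass. Animal 35 was not alone in this. The Ehhadh call was lost in 5 of 16 alternatives, also without animal 25, 26 or 33. That of Hadha was lost in 7 of 16, also without animal 25, 26 or 34, with array weights and with the mean of probe sets. The members' median difference without animal 35 was -0.35, with 26 of 31 below 0. There 876 of all genes passed, where 1041 had with all animals. Leaving out animal 36 moved the count the other way, to 14 members lower, where 7.30% of all genes passed in either direction. Animal 36 had the liver scores nearest to the controls among the 4, as its mean score of 0.63 shows.

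**Figure D2:**
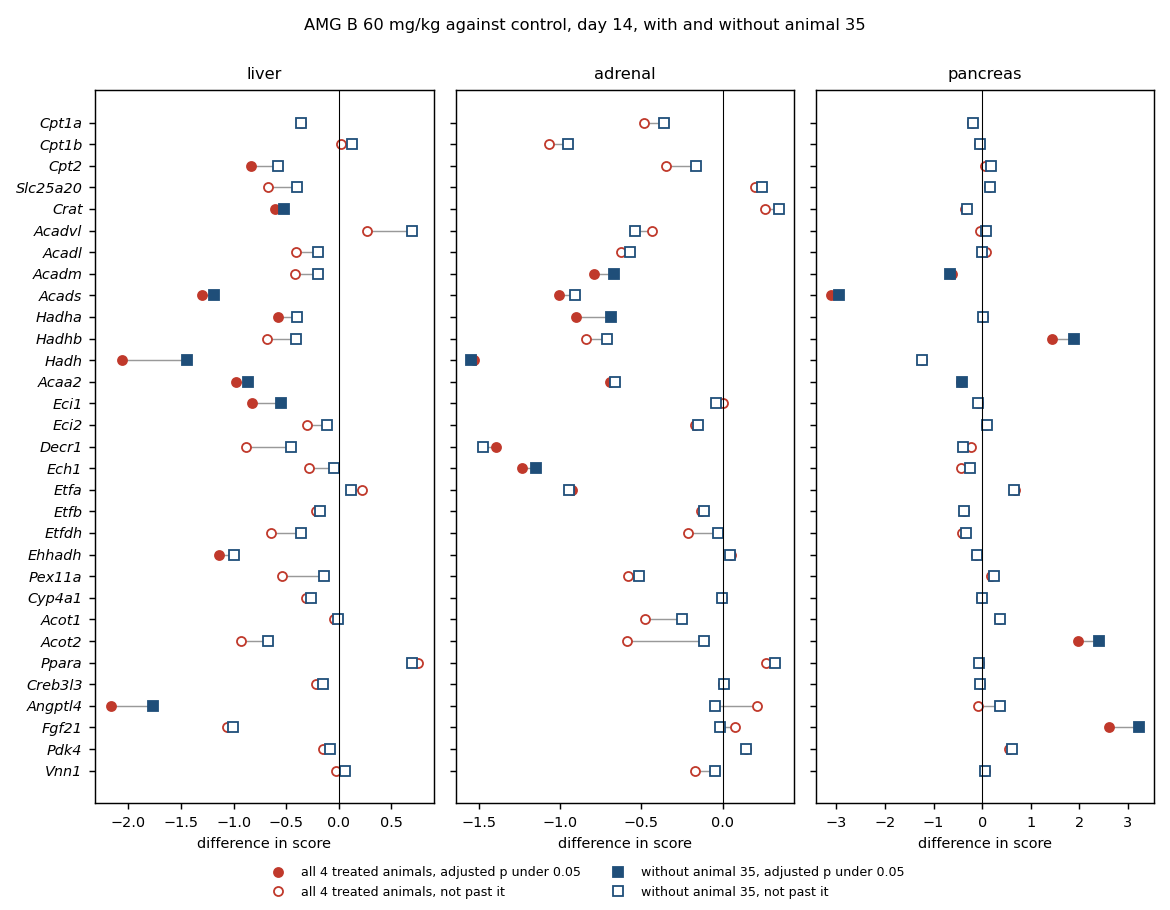
Difference in score between 60 mg/kg of AMG B and control on day 14 (horizontal axis, in standard deviations of the probe set) for the 31 members (vertical axis) in liver, adrenal gland and pancreas, each with its own scale. Red circles use all 4 treated animals and blue squares leave out animal 35, filled where the adjusted p was under 0.05. In liver most squares sit nearer to 0 than the circles, and 6 of 9 filled circles keep a filled square.

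Other cell types' markers moved in the same livers. Of 8 macrophage markers 6 fell at 60 mg/kg on day 14, their mean score running from -0.91 to 1.13 in treated and from 0.65 to 1.61 in control animals. Endothelial markers fell in 3 of 7 cases (-0.38 to 0.16 against -0.0014 to 0.55) and erythroid markers in 2 of 4 (-0.90 to -0.16 against 0.44 to 0.99). Fat cell and lymphocyte markers each fell in 1 case (Cfd and Ptprc), and muscle, islet, acinar, adrenal and hepatocyte markers in 0. Of the 7 hepatocyte markers read, 0 passed in either direction, and their mean ran from 0.52 to 0.98 in treated animals against 0.40 to 0.62 in controls. A score of 0 is a mean and not absence, so no marker can be read as absent, and the part of these cell types in the members' differences was not tested.

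Related genes outside the list moved in liver at the same dose and day. Their calls include animal 35 and are not shown without it. Of 19 genes of peroxisomal oxidation and other PPARA targets, 6 fell and 0 rose: Crot (-1.34), Fads2 (-1.38), Acot4 (-1.29), Abcd3 (-1.24), Plin2 (-0.98) and Pex19 (-0.96), with a median of -0.15 over the 19. Crot, which prepares medium chains for leaving peroxisomes, scored 1.31, 1.20, 1.29 and 1.502 in controls and 0.0055, -0.12, -0.83 and 0.88 at 60 mg/kg, without overlap. Of 4 ketone body genes, Bdh1, which makes hydroxybutyrate, fell by 0.90 (adjusted p = 0.00053), and so did the monocarboxylate carrier Slc16a1 (-0.89, adjusted p = 0.026). Acsl1, an acyl-CoA synthetase, was the only 1 of 12 uptake and activation genes to fall (-0.28, adjusted p = 0.031). Of 12 receptors and cofactors Rxra, the partner of PPARA, rose (0.87, adjusted p = 0.018), and of 5 genes of malonyl-CoA control Prkaa1, a catalytic subunit of AMP-activated kinase, rose (0.51, adjusted p = 0.012). Igfbp1, a liver gene raised by fasting, rose by 2.497 (adjusted p = 0.040), the only 1 of 5 fasting genes to pass, with scores of 2.01, 1.45, 7.19 and 2.64 against 0.63, 1.71, 0.94 and 0.017. Its highest value was that of animal 35, and 1 treated animal lay inside the control range. Of 8 liver genes of feeding 0 passed.

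The liver fall was seen late. At 60 mg/kg limma called 0 of 31 members on day 1, with 2 at an unadjusted p under 0.05, and 0 on day 4, with 1. Over all genes 0.12% passed on day 1 and 0.844% on day 4 after adjustment. Unadjusted, 1120 and 1771 of the 14217 genes were under 0.05. The median difference of the members went from 0.06 on day 1 to -0.13 on day 4 and -0.54 on day 14. Hadh differed by -0.04, -0.42 and -2.07 on the 3 days, and Acaa2 by 0.03, -0.19 and -0.98. Tested directly, the day 14 effect was lower than the day 1 effect in 1 member, Acaa2 (-1.01, SE 0.23, adjusted p = 0.046), where 0.295% of all genes differed. That call was lost in 20 of 24 alternatives, 13 of them leaving out 1 animal (1, 3, 4, 9, 10, 11, 25, 26, 27, 28, 33, 34 or 35), and the difference was not detected for the other members, Angptl4 (-2.09) and Hadh (-2.02) included. At 3 mg/kg of AMG B limma called 0 members in liver on days 1, 4 and 14, with 0%, 0.0141% and 0% of all genes. At an unadjusted p under 0.05 there were 0, 1 and 3 members, and 653, 810 and 957 of 14217 genes.

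**Figure D3:**
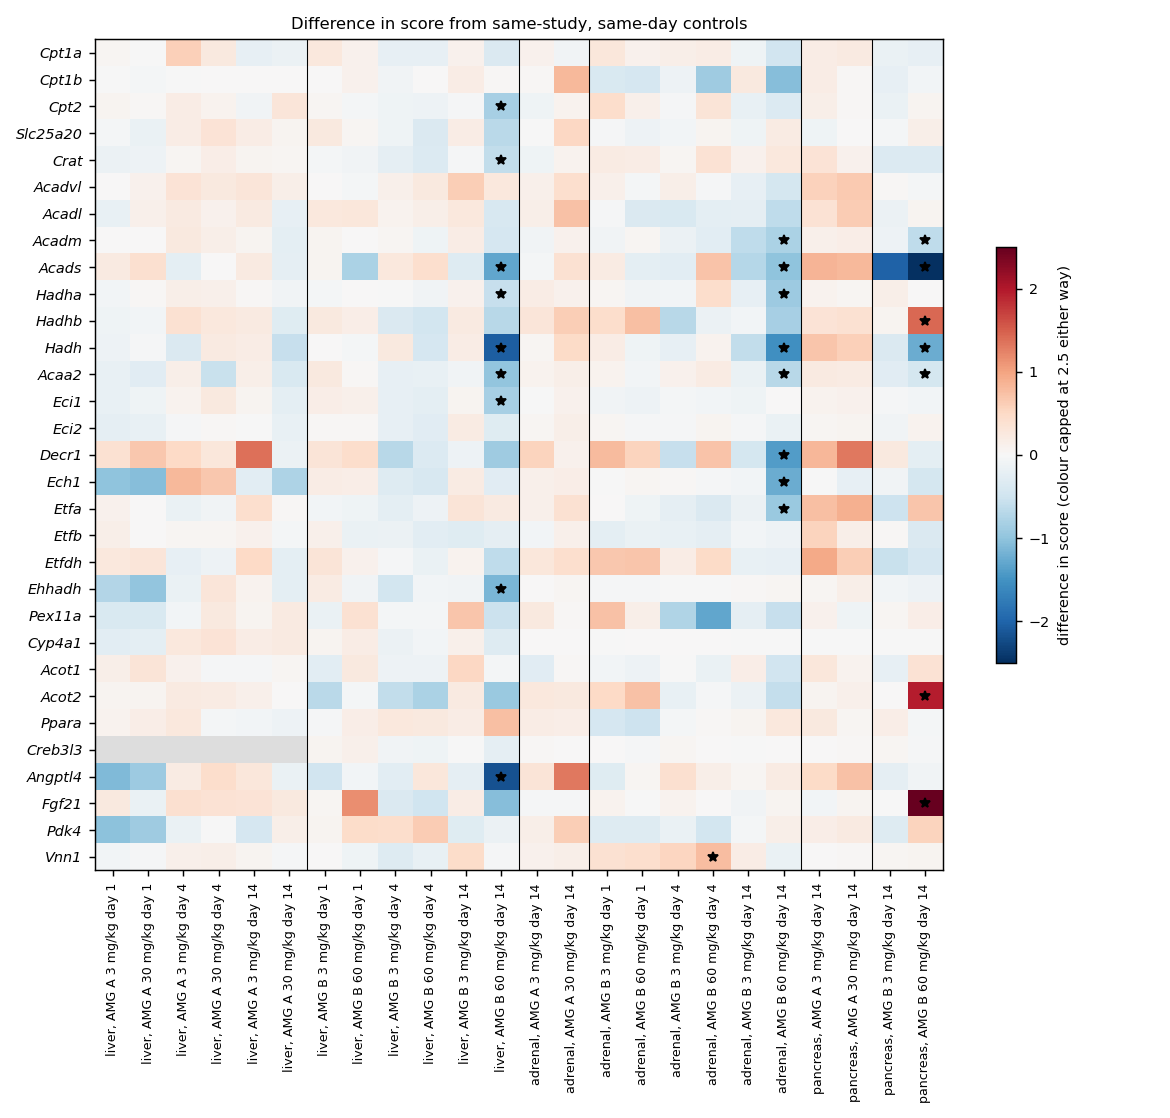
Difference in score from the controls of the same study and day (colour, in standard deviations of the probe set, capped at 2.5) for the 31 members (vertical axis) in the 24 comparisons of a dose with control (horizontal axis). Stars mark an adjusted p under 0.05 and grey cells a gene that was not read in that table. All but 1 of the 25 stars sit in the columns of AMG B at 60 mg/kg on day 14, and the other is Vnn1 in adrenal gland on day 4.

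In liver of the AMG A study limma called 0 of 30 members at either dose on any day. Over all genes 0% and 0.346% passed on day 1 at 3 and 30 mg/kg, 0.00961% and 0.0384% on day 4, and 0% and 0.365% on day 14. At an unadjusted p under 0.05 there were 3 and 3 members on day 1, 1 and 1 on day 4, and 3 and 0 on day 14. Of the 10411 genes, 1061 and 1287 were under it on day 1, 746 and 1063 on day 4, and 824 and 1350 on day 14. The lowest adjusted p was that of Ehhadh on day 1 at 30 mg/kg (-0.98, adjusted p = 0.11). On day 14 at 30 mg/kg the members' differences ran from -0.77 (Ech1) to 0.30 (Cpt2), with a median of -0.11. Hadh differed there by -0.58 and Acaa2 by -0.38, beside -2.07 and -0.98 at 60 mg/kg of AMG B, but doses and tables differ and the compounds were not compared in liver. The day 14 effect differed from the day 1 effect in 0 members and in 0% of all genes (limma). At an unadjusted p under 0.05 there were 1 member and 489 of 10411 genes.

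In adrenal gland the same dose and day of AMG B also lowered members of the set. Of 31 members 8 fell and 0 rose, where 9.11% of all genes passed and 4.59% as lower. They were Hadha, Hadh, Acaa2, Acads, Acadm, Ech1, Decr1 and Etfa, that is 5 enzymes of the mitochondrial spiral, 2 auxiliary enzymes and an electron acceptor, and the median difference was -0.43. In 8 members all treated animals lay below all controls, Acadl and the called members other than Etfa, against 12.4% of all genes in either direction. With only the 2 compared groups in the fit 0 members passed and 158 of all genes. In the fit of all groups, 14 members and 3219 of 14217 genes had an unadjusted p under 0.05.

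Hadha scored 1.57, 1.39, 1.29 and 1.48 in control adrenal glands and 0.26, 1.05, -0.12 and 0.92 at 60 mg/kg. It fell by 0.90 (SE 0.22, adjusted p = 0.0050), with the groups apart. Hadh scored 0.23, 0.66, -0.07 and 0.97 in controls and -1.75, -0.52, -1.03 and -1.04 at 60 mg/kg, and fell by 1.53 (SE 0.39, adjusted p = 0.0090). Ech1, a dienoyl-CoA isomerase, scored 0.23, -0.25, -0.58 and -0.10 in controls and -1.41, -0.87, -1.66 and -1.69 at 60 mg/kg. It fell by 1.23 (SE 0.31, adjusted p = 0.0086), also without overlap. Acadm and Acads were already low at the low dose. Acadm scored 0.08, -0.12, -0.29 and 0.00025 in controls, -0.72 ± 0.19 at 3 mg/kg and -1.03, -0.36, -1.22 and -0.87 at 60 mg/kg, where it fell by 0.79 (SE 0.20, adjusted p = 0.0083). Acads scored 0.35 ± 0.21 in controls, -0.36 ± 0.23 at 3 mg/kg and -0.66 ± 0.43 at 60 mg/kg, and fell by 1.01 (SE 0.28, adjusted p = 0.016). The low-dose differences of -0.64 for Acadm and -0.70 for Acads did not pass over all genes. Acaa2 (-0.69, adjusted p = 0.034), Etfa (-0.92, adjusted p = 0.036) and Decr1, the dienoyl-CoA reductase (-1.39, adjusted p = 0.036), were the other members to fall. Etfa lost its call in 8 and Decr1 in 7 of 16 alternatives, 6 and 5 of them leaving out 1 animal (25, 28, 33, 35 or 36 for both, and 26 for Etfa).

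Some members that fell in liver were near 0 in adrenal gland. Angptl4 differed by 0.21 in adrenal gland, Ehhadh by 0.050, Eci1 by 0.0050 and Crat by 0.26, none past the threshold, where each had fallen in liver. Ehhadh and Eci1 scored low in control adrenal gland of the AMG A study, at -1.04 ± 0.02 and -0.87 ± 0.11 (SD, n = 4). At such levels a fall may go unseen. The difference between the tissues was tested, and of the 31 members only Cpt1b passed for liver minus adrenal gland (1.09, adjusted p = 0.029, 1.91% of all genes), a call lost in 8 of 17 alternatives, among them leaving out any 1 of animals 25, 26, 28, 33, 35 and 36. The fall of Angptl4, Ehhadh, Eci1 and Crat is therefore not shown to be absent from adrenal gland.

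Against the low dose, 2 members were lower in adrenal gland, Ech1 (-1.16, adjusted p = 0.017) and Hadha (-0.69, adjusted p = 0.043), with 3.43% of all genes lower. The Hadha call was lost in 10 of 16 alternatives (also without any 1 of animals 30, 31, 32, 33 and 35) and that of Ech1 in 5 of 16 (without animal 31, 35 or 36). The day 14 effect was lower than the day 1 effect for Hadhb (-1.60, adjusted p = 0.040), the only member, where 2.13% of all genes differed. The call was lost in 15 of 24 alternatives, among them quantile normalization, all probe sets and leaving out any 1 of 12 animals (1, 3, 4, 9, 11, 12, 25, 26, 28, 33, 35 and 36). Hadhb went from a difference of 0.76 on day 1 to -0.84 on day 14, neither of which passed on its own. On day 4 at 60 mg/kg 1 member rose, Vnn1, with 1.06% of all genes called. Vnn1 scored 0.62, 0.87, 0.80 and 0.77 in controls and 1.32, 1.73, 1.43 and 1.71 at 60 mg/kg, without overlap (0.78, SE 0.19, adjusted p = 0.033). It did not pass at 60 mg/kg on day 1 (0.42) or day 14 (-0.17), nor at 3 mg/kg on day 4 (0.55), and its call ended when any 1 of 6 animals of the compared groups (control animals 13, 14 and 16, treated animals 22, 23 and 24) was left out.

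At 60 mg/kg on day 1 limma called 0 members in adrenal gland, with 0.239% of all genes. At an unadjusted p under 0.05 there were 4 members and 1162 of 14217 genes. At 3 mg/kg of AMG B it called 0 on days 1, 4 and 14, with 0.00703%, 0.0422% and 0.0281% of all genes. Unadjusted, 3, 3 and 2 members and 640, 848 and 832 of all genes were under 0.05. For AMG A on day 14 it called 0 at 3 mg/kg (0.0141% of all genes) and 0 at 30 mg/kg (0% of all genes). Unadjusted, 0 members and 455 of all genes were under 0.05 at 3 mg/kg, and 6 and 847 at 30 mg/kg. In that last group 29 of 31 differences were above 0, with a median of 0.15. The size of a difference had a median of 0.152 in the members and 0.145 in all genes. The mean member score was 0.68 in animal 3035 and 0.12 to 0.26 in the others of the group. The 31 differences share the same animals, and this dose was not compared with 60 mg/kg of AMG B.

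Animal 35 mattered in adrenal gland too. Without it 4 members fell, Hadh (-1.55), Hadha (-0.69), Acadm (-0.67) and Ech1 (-1.15), where 7.41% of all genes passed in either direction. Acaa2, Acads, Decr1 and Etfa then had adjusted p values of 0.081, 0.059, 0.051 and 0.061. Its mean member score was -0.41, next to -0.39 in animal 33 and below -0.029 and -0.095 in animals 34 and 36. Adrenal medulla markers averaged 0.24 in this gland against 1.73 to 2.35 in the other 3, and fat cell markers 1.78 against -0.19 to 0.55. Endothelial markers averaged 0.54 in it against -0.73 to -0.57 in the other 3, and macrophage markers -0.19 against -1.18 to -1.07. In the group as a whole 5 of 8 macrophage, 3 of 7 endothelial and 1 of 5 lymphocyte markers fell, and 0 of 5 cortex, 0 of 5 medulla, 0 of 7 fat cell, 0 of 8 muscle and 0 of 4 erythroid markers passed. Without animal 35 the members' median was -0.16, and the part of these cell types was not tested. Outside the list, Esrra (0.70, adjusted p = 0.019) and Ppargc1a (0.63, adjusted p = 0.040), a receptor and a coactivator of oxidative genes, rose in adrenal gland. Fads2 fell by 1.04 (adjusted p = 0.023), and Acly (1.07, adjusted p = 0.0026) and Asns (0.16, adjusted p = 0.017) rose. These calls outside the list include animal 35, and whether they hold without it is not shown here.

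In pancreas at 60 mg/kg of AMG B on day 14, members went both ways. Acadm, Acaa2, Acads and Hadh fell, and Acot2, Fgf21 and Hadhb rose, 7 of 31 where 12.1% of all genes passed (5.43% lower and 6.66% higher). The members' median difference was -0.04, and the size of a difference had a median of 0.21 in the members and 0.56 in all genes. In 4 members all treated animals lay below and in 2 above all controls, with 19% of all genes not overlapping. With only the 2 compared groups in the fit, 1 of the 7 calls remained, that of Acadm, and the share of all genes in that fit is not given here. In the fit of all groups, 8 members and 3956 of 14217 genes had an unadjusted p under 0.05. The alternative with a filter on low scores did not test Acadm, Acaa2, Hadh and Acot2 in pancreas.

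Acadm scored -1.52, -1.53, -1.49 and -1.12 in control pancreas and -2.12, -2.09, -1.94 and -2.03 at 60 mg/kg. It fell by 0.63 (SE 0.13, adjusted p = 0.0048), without overlap. Acaa2 fell by 0.44 (SE 0.11, adjusted p = 0.012), from -1.54 ± 0.07 to -1.98 ± 0.10, and Hadh by 1.23 (SE 0.37, adjusted p = 0.035), from -1.09 ± 0.54 to -2.32 ± 0.34, both also without overlap. Acads scored 2.74, 2.94, 1.37 and 2.73 in controls and -2.54, 0.92, -1.14 and 0.12 at 60 mg/kg, and fell by 3.11 (SE 0.80, adjusted p = 0.017). Control pancreas of the AMG A study scored -1.66 to 0.75 for Acads, so the controls of the AMG B study were higher than those of the other study and the treated animals lay across that range.

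Acot2, a mitochondrial thioesterase, scored -1.20, -1.29, -1.38 and -1.38 in controls and -0.14, 0.49, -0.68 and 2.94 at 60 mg/kg. It rose by 1.96 (SE 0.45, adjusted p = 0.0083), with every treated animal above every control and animal 36 highest. All 3 Acot2 probe sets rose, by 1.96, 1.98 and 2.82. Fgf21, chosen for its values outside the 12 members named by rule, scored -0.71, -1.06, -0.68 and -0.58 in controls and 0.19, 1.49, -0.01 and 5.73 at 60 mg/kg. It rose by 2.61 (SE 0.75, adjusted p = 0.029), again in all 4 treated animals and most in animal 36. Hadhb rose by 1.44 (SE 0.45, adjusted p = 0.043), from -1.16 ± 0.78 to 0.27 ± 1.13, with overlap, a call lost in 8 of 16 alternatives, among them without animal 26, 27, 33, 34 or 36. The Fgf21 call against control was lost in 4 of 16, 3 of them without animal 25, 26 or 27. Against 3 mg/kg, Acot2 (1.95), Fgf21 (2.62) and Pdk4 (0.87) were higher and Acadm (-0.51) lower, 3 and 1 members where 3.47% and 1.55% of all genes were. The Pdk4 call was lost in 12 of 16 alternatives (also without any 1 of animals 29, 30, 31, 32, 34, 35 and 36), that of Fgf21 in 9 of 16 (also without any 1 of animals 29, 30, 31, 32 and 34), that of Acadm in 6 of 15 (without animal 29, 32, 33, 34 or 36) and that of Acot2 in 2 of 15 (without animal 30).

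**Figure D4:**
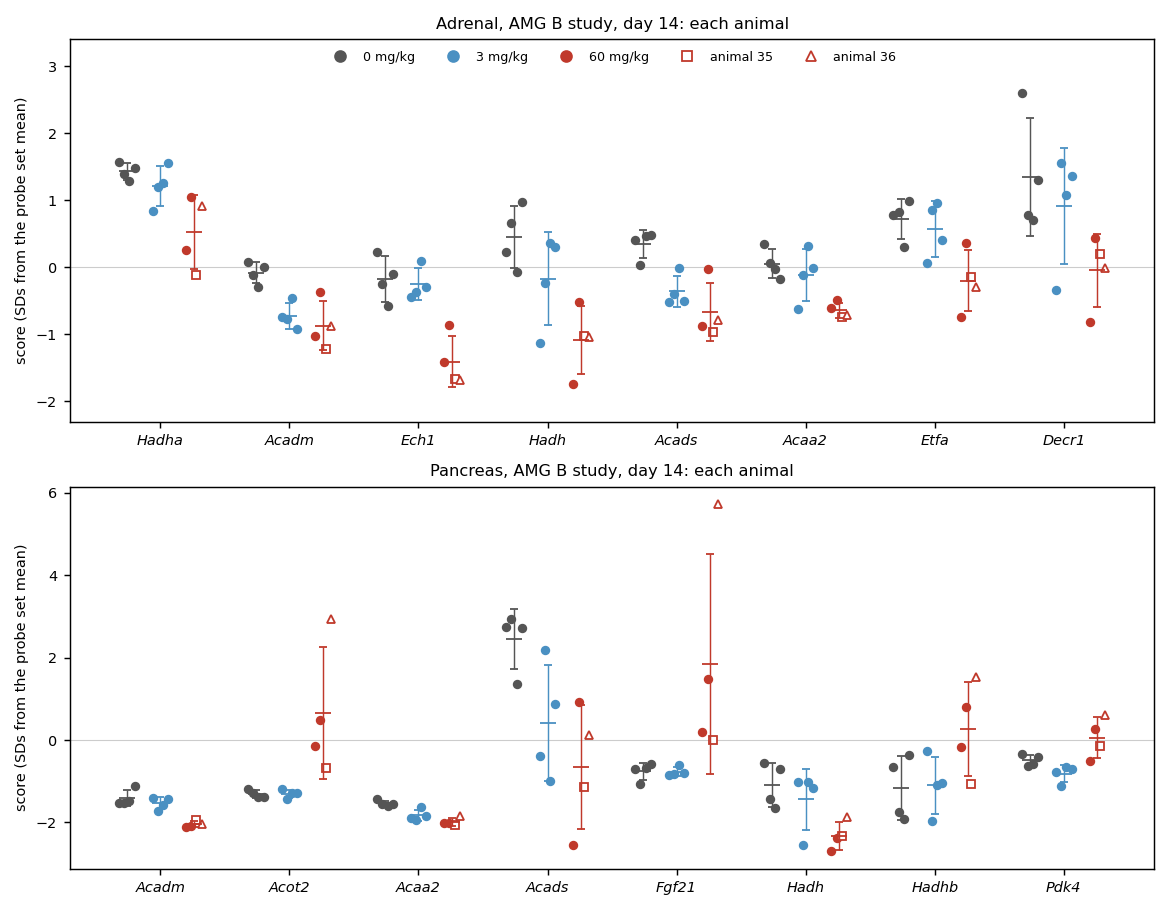
Scores of each animal on day 14 of the AMG B study (vertical axes, in standard deviations of the probe set) in adrenal gland (top) and pancreas (bottom), for the members called at 60 mg/kg and, in pancreas, Pdk4. Symbols are as in the plot of liver scores, and bars are mean and SD of 4 animals. In pancreas animal 36 is the highest for Acot2 (2.94) and Fgf21 (5.73).

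Animal 36 stood apart in pancreas. Its skeletal muscle markers averaged 3.30, against -0.26 to -0.10 in the other 3 treated animals and -0.43 to -0.24 in controls. Its mean member score was -0.24, against -1.20 to -0.85 in the other 3. Without it Acot2 (1.20, adjusted p = 0.00065) and Fgf21 (1.31, adjusted p = 0.0029) still rose, and Hadhb did not pass (1.02, adjusted p = 0.13). Without animal 35, Acot2 (2.41) and Fgf21 (3.23) rose as well, Hadhb rose (1.88, adjusted p = 0.010), and Hadh did not pass (-1.23, adjusted p = 0.067). All 8 acinar markers fell at this dose, their mean running from 1.54 to 1.73 in treated animals and from 2.32 to 3.13 in controls. Of the other lists, 2 of 5 islet, 3 of 7 endothelial and 1 of 8 macrophage markers fell, 1 of 8 muscle markers rose, and 0 of 7 fat cell, 0 of 4 erythroid and 0 of 5 lymphocyte markers passed, although lymphocyte markers averaged 4.99 in animal 33. Their part in the members' differences was not tested.

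Outside the list, Ppargc1b, a coactivator of oxidative genes, fell most among 12 receptors and cofactors in pancreas (-2.82, adjusted p = 0.00097), from 0.54 ± 0.43 to -2.28 ± 0.99. Of 19 peroxisomal genes and other targets, Pex19 (-1.28), Abcd3 (-1.29) and Scp2 (-0.55) fell and Acot3 (0.50) rose. Abcd3, the peroxisomal importer of fatty acyl-CoA, had also fallen in liver, and so had Pex19, which brings membrane proteins to peroxisomes. Of 8 genes of feeding, Fasn (0.75) and Scd (2.13), which make and desaturate fatty acids, rose, and Pnpla3 (-1.77) fell.

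At 3 mg/kg of AMG B limma called 0 members in pancreas, and for AMG A 0 at 3 mg/kg and 0 at 30 mg/kg, each with 0% of all genes. At an unadjusted p under 0.05 there were 2, 2 and 2 members, and 1263, 556 and 1052 of 14217 genes. With AMG A 27 and 28 of the 31 differences were above 0, with medians of 0.18 and 0.12. Their sizes had medians of 0.18 and 0.14 in the members and 0.28 and 0.33 in all genes. Both compounds were given at 3 mg/kg, and their day 14 effects were compared in adrenal gland and pancreas, each against its own controls. Limma called 0 members in adrenal gland (0.0211% of all genes), where the differences between compounds ran from -0.44 to 0.99. Unadjusted, 0 members and 573 of all genes were under 0.05 there. In pancreas it called 0 (0% of all genes), with differences from -0.071 to 2.87, the last for Acads. Unadjusted, 3 of 31 members and 1488 of 14217 genes were under 0.05 there. With 4 animals a group, smaller differences may have gone undetected. Structures are not given for these code-named compounds.

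Across the 3 tissues, Hadh, Acaa2 and Acads fell at 60 mg/kg of AMG B on day 14 in each. Over all 14217 genes 10 (0.0703%) fell in all 3 tissues, and these 3 members (9.68% of 31) are among them. The tissues came from the same animals, and none of the 3 kept all its calls without animal 35. The adrenal call of Acaa2 was lost in 9 of 16 alternatives, among them quantile normalization, array weights and leaving out any 1 of animals 25, 26, 27, 33, 35 and 36. Hadh lost its call in all 3 tissues with the mean of its probe sets, and in pancreas also without any 1 of animals 25, 28, 33, 34 and 35. Acads lost its pancreas call without animal 33. The alternative with a filter on low scores did not test Acaa2 and Hadh in pancreas. Acads fell there from controls averaging 2.45, where pancreas controls of the AMG A study averaged 0.13. Hadha also fell in liver and adrenal gland, where 4 of 31 members (12.9%) and 0.556% of all genes did, and Acadm in adrenal gland and pancreas, where 4 members (12.9%) and 0.281% of all genes did. In 16 of 31 members at least 1 tissue passed (51.6%, against 25.5% of all genes), and 0 members passed in opposite directions in different tissues, where 0.802% of all genes did. These counts use 1 probe set per gene. A further Acot2 probe set fell in adrenal gland, while Acot2 rose in pancreas.

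The effect itself was also set against that of another tissue. For liver minus pancreas, 4 members differed, Fgf21 (-3.67, adjusted p = 0.0092), Acot2 (-2.90, adjusted p = 0.010), Hadhb (-2.12, adjusted p = 0.020) and Cpt2 (-0.90, adjusted p = 0.046), where 11.4% of all genes did. For adrenal gland minus pancreas, 5 differed, Hadhb (-2.28, adjusted p = 0.011), Cpt1b (-1.005, adjusted p = 0.015), Acot2 (-2.55, adjusted p = 0.022), Hadha (-0.92, adjusted p = 0.038) and Etfa (-1.61, adjusted p = 0.044), where 12.4% of all genes did. Each of these members was lower against its controls in liver or adrenal gland than in pancreas. Cpt1b did not pass against controls in adrenal gland (-1.07, adjusted p = 0.15) or pancreas (-0.062). As counts of 31 members, 4 and 5 are near the shares of all genes that differed. Among 17 alternatives each, Cpt2 lost its call in 12 and Hadha in 12, including when any 1 of control animals 25 to 28 was left out, Etfa in 9 and Cpt1b, for adrenal gland minus pancreas, in 4. For liver minus pancreas Fgf21 and Acot2 lost theirs in 1, the fit of only the compared groups.

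Hadha and Hadhb, the head-to-head pair printed above, were both below controls in liver (-0.58 and -0.69) and adrenal gland (-0.90 and -0.84). In pancreas Hadhb was at 1.44 and Hadha at 0.02. Over deviations of arrays from their group means, their scores correlated at 0.797 in liver of the AMG B study (36 arrays), 0.886 in liver of the AMG A study (36 arrays) and 0.404 in adrenal gland of the AMG B study (36 arrays). It was 0.712 in adrenal gland and 0.657 in pancreas of the AMG A study (12 arrays each), and 0.094 in pancreas of the AMG B study (12 arrays). Arrays of a tissue share tissue and scaling, and these values are descriptions.

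Probe sets of a gene did not always agree. The second Hadh probe set differed by -0.54 in liver (adjusted p = 0.76), 0.02 in adrenal gland and -0.21 in pancreas, none past the threshold. The other probe sets of Hadha differed by -0.16 and 0.07 in liver and by -0.07 and 0.15 in adrenal gland, and that of Eci1 by -0.17 in liver. Results for Hadh, Hadha and Eci1 therefore rest on 1 probe set each. For Acaa2 the second probe set differed by -0.30 in liver (adjusted p = 0.064) and -0.07 in adrenal gland, and fell in pancreas (-2.52, adjusted p = 0.020). The second Cpt1a probe set rose in pancreas (0.41, adjusted p = 0.026) where the first differed by -0.21, and a further Acot2 probe set fell in adrenal gland (-1.22, adjusted p = 0.0051).

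In untreated animals most members differed between tissues, which is the background of the differences above. Among control rats of the AMG B study on day 14, 12 members were higher in liver than in adrenal gland and 7 lower, where 23.5% and 28.9% of all genes were. Against pancreas, 24 were higher in liver and 2 lower, with 31.6% and 30.4% of all genes. Adrenal gland exceeded pancreas in 20 members and was below it in 3, with 34.5% and 29.8% of all genes. Cyp4a1 scored 1.17 ± 0.18 in liver, -0.99 in adrenal gland and -0.97 in pancreas, and Creb3l3, a liver transcription factor, 1.41, -0.73 and -0.72, so both were high in liver alone. Slc25a20, Eci2 and Acadm were highest in liver and lowest in pancreas. Cpt1b, the muscle form, was highest in adrenal gland (1.77, against -0.62 in liver and -0.41 in pancreas), where Vnn1, Crat, Hadha and Cpt2 were highest too.

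**Figure D5:**
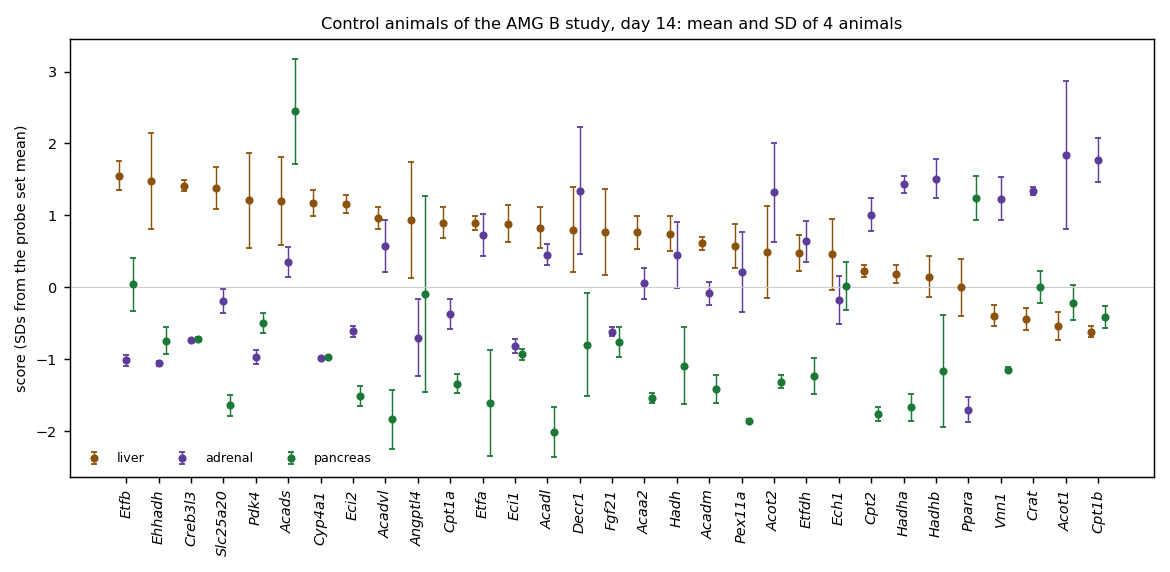
Scores of the 31 members (horizontal axis, in order of the liver mean) in control rats of the AMG B study on day 14, as mean and SD of 4 animals (vertical axis, in standard deviations of the probe set), for liver, adrenal gland and pancreas. Most members are lowest in pancreas, while Acads (2.45) and Ppara (1.24) are highest there. Control pancreas of the AMG A study, not drawn, averaged 0.13 for Acads.

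In these controls of the AMG B study Ppara and, less firmly, Acads were higher in pancreas than in liver. Control pancreas of the AMG A study averaged 1.09 for Ppara but 0.13 for Acads (-1.66 to 0.75). The high Acads level in pancreas was thus seen in the AMG B controls only. The Ppara probe set scored -0.0014 in liver, -1.70 in adrenal gland and 1.24 in pancreas, so that pancreas exceeded liver by 1.24 (adjusted p = 7.5e-05) and adrenal gland by 2.94 (adjusted p = 2.2e-11). Acads scored 1.20 ± 0.61 in liver and 2.45 ± 0.72 in pancreas, higher by 1.24 (adjusted p = 0.046). This call was lost in 5 of 13 alternatives, with quantile normalization, all probe sets and without animal 25, 26 or 28, and adjusted p reached 0.60, while those of Ppara held in all 13. The 2 Acaa2 probe sets disagreed between tissues, and with their mean pancreas was above adrenal gland instead of below it.

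Members also varied together among animals of 1 group. Over deviations from group means, the median pairwise correlation of members was 0.39 in liver of the AMG B study and 0.43 in liver of the AMG A study (36 arrays each), where that of all genes was 0.0013 and 0.00025. In adrenal gland it was 0.23 (48 arrays) and in pancreas 0.27 (24 arrays). Leaving out the AMG B animals at 60 mg/kg on day 14, the values were 0.25 in liver of the AMG B study (32 arrays), 0.22 in adrenal gland (44 arrays) and 0.15 in pancreas (20 arrays), so that those 4 animals moved liver and pancreas by over 1.5 times. In that liver set Eci1, Hadha and Slc25a20 had the highest median correlation with the other members (0.57, 0.56 and 0.53), while Ppara was at -0.09, Etfa at 0.03 and Acads at 0.09. Acads thus fell in treated livers without following the others from animal to animal.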

How the data were processed

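RNA of liver, adrenal gland and pancreas was hybridised to Affymetrix rat arrays after one-cycle biotin labelling from 5 ug of total RNA, per the labels' protocols. The deposited values were read as scores: tested on the tables, each probe set had a mean near 0 and a standard deviation near 1, over all 144 arrays for the 15866 probe sets of both tables and over the arrays of the larger table for the other 15176. How the authors summarised and scaled the arrays is not given in the sources used here, so depth is unknown, and the number of probe sets and of animals limits the precision. No fold change can be had from such scores.

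Where a gene had several probe sets, the one whose variance lay most between tissues stood for it. Day 14 controls of adrenal gland and pancreas were assigned to a study by the animal number in their labels. Limma 3.58.1 (R 4.3.3) was fitted with lmFit and eBayes, with a trend, to all genes of a tissue (36 arrays for each liver study and the AMG B tissues on day 14, 48 for adrenal gland, 24 for pancreas), without covariates. P values are two-sided and adjusted by Benjamini-Hochberg over all genes of a comparison, with a threshold of 0.05. The scripts were tested on simulated data. Tissues of a study taken on the same day share animals, and only the fit that compares tissues (AMG B, day 14) sets them side by side, with the animal as a block in an alternative. Doses hold different animals and are not paired.

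Members, lists and tests were chosen with earlier results of these data known. Members called at the high dose on day 14 (at most the 12 with the lowest adjusted p) and 9 genes that stand for the roles in liver were named with every animal's value, and others by counts or ranges. Etfa, Decr1, Fgf21 and Hadhb fell outside the 12 and were given after their values were seen. Alternatives were quantile normalization, subtracted array medians, a filter keeping probe sets that exceeded percentile 40 of the scores in at least 4 arrays, the mean of probe sets, all probe sets, array weights, no trend, only the compared groups, and each animal left out. Promoter windows came from RefSeq (GRCr8). Figures were drawn with matplotlib 3.10.9 on Python 3.11.15.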

Additional observations from a re-analysis of the deposited data

Results flagged for a closer look

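Single animals stood apart from the other 3 of their group in 6 of 50 sets of 4 scores, each of 1 gene in 1 group. A single set meets the rule by chance about 1 time in 20. Many sets share the same animals and members vary together, so the sets are not independent. Whether 6 exceeds chance was not tested. In liver these were a control for Crat (-0.67, against -0.39 to -0.35) and another control for Eci1 (0.50, against 0.98 to 1.05). In adrenal gland it was a control for Acads (0.037, against 0.41 to 0.48). In pancreas a control stood apart for Acadm (-1.12, against -1.53 to -1.49), another for Acads (1.37, against 2.73 to 2.94), and animal 36 at 60 mg/kg for Acaa2 (-1.84, against -2.05 to -2.02).

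Effects of AMG B at 60 mg/kg differed between days or tissues in the limma test of the difference itself. From day 1 to day 14 the effect on Acaa2 moved by -1.01 in liver and that on Hadhb by -1.60 in adrenal gland. On day 14 the effect in liver minus that in adrenal gland was 1.09 for Cpt1b. Liver minus pancreas was -2.90 for Acot2, -0.90 for Cpt2, -3.67 for Fgf21 and -2.12 for Hadhb. Adrenal gland minus pancreas was -2.55 for Acot2, -1.005 for Cpt1b, -1.61 for Etfa, -0.92 for Hadha and -2.28 for Hadhb. The adjusted p values stand with these genes above.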

How the results depend on the processing

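Of 642 counts of members under an alternative, 539 kept within 1.5 times the reported count. The cause of the others was not tested, except that fewer samples or fewer members entered 2 kinds of fit. With only the compared groups, counts were 0 for 60 mg/kg of AMG B on day 14 in liver and adrenal gland, on day 4 in adrenal gland, for 60 against 3 mg/kg, for day 14 against day 1 and for the differences of effect between tissues, and 1 for 60 mg/kg of AMG B in pancreas (7 before). The filter on low scores, which tested 12 members in pancreas, left 3 there, 1 against 3 mg/kg, and 0 for the day 14 against day 1 effect in liver. That last count of 1 was also 0 with quantile normalization, subtracted medians, mean of probe sets, all probe sets and array weights. The adrenal count of that kind was 0 with quantile normalization or all probe sets and 2 with the mean of probe sets. Against 3 mg/kg, adrenal gland gave 1 with quantile normalization, mean of probe sets or all probe sets and 0 with array weights, liver gave 6 with array weights, and pancreas 2 with all probe sets. Array weights gave 1 call at 3 mg/kg in pancreas and 4 for the effect in liver minus adrenal gland, and all probe sets gave 0 for the latter. Adrenal gland minus pancreas gave 3 with quantile normalization, subtracted medians or all probe sets.

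With 1 animal left out, counts at 60 mg/kg of AMG B on day 14 ran from 6 to 14 in liver, 4 to 9 in adrenal gland and 4 to 6 in pancreas. Against 3 mg/kg they ran from 3 to 18, 0 to 5 and 1 to 4. The day 14 against day 1 effect gave 0 to 3 in liver and 0 to 2 in adrenal gland. The effect differed between tissues for 0 to 2 (liver and adrenal gland), 2 to 6 (liver and pancreas) and 1 to 5 members (adrenal gland and pancreas). Adrenal gland gave 0 to 1 on day 4 of AMG B and at 30 mg/kg of AMG A.

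With the replicate block, which pairs tissues of the same animal, 20 members differed between control liver and adrenal gland (19 without it), and the block moved no other count by over 1.5 times. Of 1784 values of single members, 290 were no longer called and 2 reversed: with the mean of probe sets, Acaa2 was -0.15 for control liver minus pancreas (adjusted p = 0.62) and -0.73 for adrenal gland minus pancreas (adjusted p = 0.0098).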
